A study of Mus musculus with 19 samples.

Results

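The NF-κB subunits and the feedback inhibitors of this pathway were followed at the RNA level in the suprarenal abdominal aorta (SRA) of mice whose smooth muscle cells had or lacked IKKβ. The members were chosen by symbol, as the rows of the expression table named Nfkb1, Nfkb2, Rela, Relb or Rel (5 subunits) and Nfkbia, Nfkbie, Nfkbiz, Tnfaip3 or Birc3 (5 inhibitors). All 10 were present among the 20408 genes of the table, and all 10 passed the filter on low values with 14845 genes in all. Bulk RNA-Seq was done on the SRA of 19 male mice on regular chow, 24 h after the start of a saline or an angiotensin II (Ang II) infusion. The labels give their age as 8 weeks, which in the methods of the study is the age at the tamoxifen injections that came before the infusion. All mice were ApoE-/- and carried SMA-CreERT2, and all had received tamoxifen. The IKKβ-/- mice were SMA-CreERT2 Ikkβ Flox/Flox ApoE-/- (5 Ang II-treated, 4 saline-infused), and the IKKβ+/+ mice were their SMA-CreERT2 ApoE-/- littermates (5 Ang II-treated, 5 saline-infused). The labels give the Ang II dose as 500 to 1000 ng/min/kg, and the methods of the study name the upper of these for the sequenced mice. The Cre is driven by the smooth muscle α-actin promoter, so that endothelial cells, fibroblasts and leukocytes of the vessel kept Ikbkb, and a whole vessel cannot tell fewer cells of a type from less RNA per cell.

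NF-κB is a family of dimeric transcription factors. In the canonical arm, cytokine and pattern receptors activate the IKK complex, whose IKKβ kinase marks the inhibitor IκBα for degradation and frees p50 (from Nfkb1), RelA and c-Rel. In the non-canonical arm IKKα drives the processing of p100 (from Nfkb2) to p52, which acts with RelB. Several inhibitors are themselves targets of NF-κB and close a feedback loop. IκBα (Nfkbia) and IκBε (Nfkbie) hold dimers in the cytoplasm, A20 (Tnfaip3) is a ubiquitin-editing enzyme that damps signaling upstream of IKK, cIAP2 (Birc3) is a ubiquitin ligase at the TNF receptor, and IκBζ (Nfkbiz) is a nuclear IκB protein that assists transcription of some secondary response genes.

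The κB consensus, the site that NF-κB dimers bind, was looked for on both strands in the 250 bases before the RefSeq start of each gene (GRCm38.p6). A window was given for 7 of the 10 members, with several starts for some of them (10 windows). The consensus was found for 5 members, Nfkb2, Rel, Nfkbia, Nfkbie and Tnfaip3, in 7 of their windows, and in 7.25% of 32851 windows of all genes. Rela and Birc3 had no match to these letters in their windows. The 250 bases are shown in full for Nfkbia and Rel, since the RNA of both passed a test below, written 5′ to 3′ along the gene with the κB match in capitals.
Nfkbia, chr12:55492648-55492897, minus strand: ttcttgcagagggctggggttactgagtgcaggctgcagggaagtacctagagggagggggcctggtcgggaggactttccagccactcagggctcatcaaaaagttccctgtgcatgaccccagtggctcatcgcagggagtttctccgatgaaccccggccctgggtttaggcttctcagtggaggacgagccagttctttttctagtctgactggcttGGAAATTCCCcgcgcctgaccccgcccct
Rel, chr11:23770970-23771219, minus strand: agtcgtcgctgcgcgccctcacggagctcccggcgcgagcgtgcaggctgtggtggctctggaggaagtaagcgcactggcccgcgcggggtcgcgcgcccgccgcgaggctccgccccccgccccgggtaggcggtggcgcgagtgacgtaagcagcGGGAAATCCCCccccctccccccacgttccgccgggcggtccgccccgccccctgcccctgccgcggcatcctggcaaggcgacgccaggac

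The Nfkbia match began 29 bases before the RefSeq start. The Rel match held overlapping copies of the consensus that began 92 and 91 bases before the start. The matches of Tnfaip3, the third member past a test, and of Nfkb2 and Nfkbie are shown with their nearest bases only, again with the match in capitals and on the strand of the gene.
Tnfaip3, chr10:19015516-19015545, minus strand: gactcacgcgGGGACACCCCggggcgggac
Tnfaip3, chr10:19015403-19015432, minus strand: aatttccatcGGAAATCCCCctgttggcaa
Nfkb2, chr19:46304689-46304717, plus strand: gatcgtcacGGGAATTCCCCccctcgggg
Nfkb2, chr19:46304716-46304745, plus strand: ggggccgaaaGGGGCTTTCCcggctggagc
Nfkb2, chr19:46305449-46305478, plus strand: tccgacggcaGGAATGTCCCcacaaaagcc
Nfkb2, chr19:46305695-46305724, plus strand: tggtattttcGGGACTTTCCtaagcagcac
Nfkbie, chr17:45555584-45555613, plus strand: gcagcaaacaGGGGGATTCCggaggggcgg
The Tnfaip3 matches began 125 and 12 bases before its RefSeq start. A match is a description of the sequence, and binding was not measured here.

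The libraries held between 11382573 and 19906694 reads on genes, and the values below are normalized counts, in which the reads of a mouse are divided by its size factor. The members rested on 6 to 1746 reads per mouse, and Nfkbie was the member with the fewest. Ikbkb, the targeted gene, had 673.4 ± 78.6 normalized counts (SD, n = 5) in saline-infused and 725.9 ± 46.3 (SD, n = 5) in Ang II-treated IKKβ+/+ mice, and 515.2 ± 74.3 (SD, n = 4) and 547.7 ± 87.9 (SD, n = 5) in the matching IKKβ-/- mice. It was lower by 24.4% over both treatments (log2 fold change -0.40, SE 0.0856, adjusted p = 0.0232, limma). The smooth muscle markers Acta2 and Myh11 were abundant in every mouse, with lowest values of 113300 and 61000. The animal numbers ran in separate blocks for the 4 groups and the labels name no batch, so that batch and group cannot be told apart.

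Per kilobase of annotated exon, Nfkbia and Rela were the most abundant members. Nfkbia had a mean of 669.7 and Rela of 315.3 normalized counts per kilobase over the 19 mice. Nfkb1 (87.8), Nfkb2 (79.0), Birc3 (68.8), Nfkbiz (67.4) and Relb (61.3) lay close together. Tnfaip3 (25.8), Nfkbie (21.1) and Rel (16.6) were the least abundant per kilobase. In the saline-infused IKKβ+/+ aorta the order was the same for the first members, with Nfkbia at 458.5 and Rela at 321.4 per kilobase, and Tnfaip3 stood at 36.3. These lengths pool the exons of all annotated transcripts, which lowers the value of a gene with long rare transcripts.

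**Figure D1:**
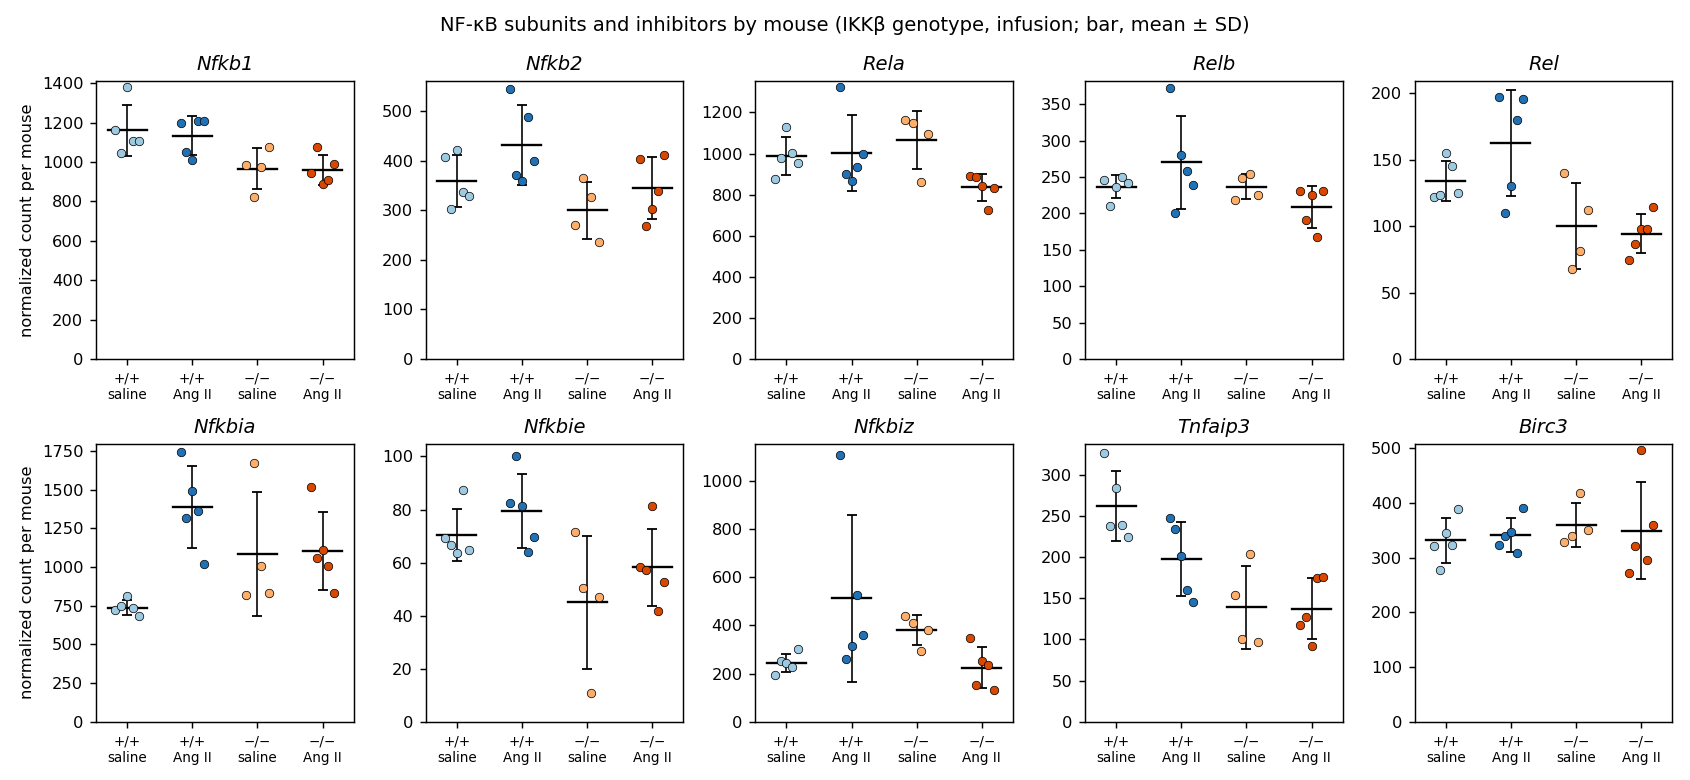
Normalized counts of the 10 members (y axis, from 0) in each mouse, by IKKβ genotype and infusion (x axis); points are mice, bars are means and error bars SD. The 5 Ang II-treated IKKβ+/+ mice sat above all saline-infused IKKβ+/+ mice for Nfkbia, and the 4 saline-infused IKKβ-/- mice sat below them for Tnfaip3.

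The first question was whether Ang II changed the RNA of these regulators in IKKβ+/+ mice. One member rose, the inhibitor Nfkbia, and no subunit passed the test. A gene was taken as changed if its adjusted p lay below 0.1 and its fold change exceeded 1.2, the thresholds of the study, in a limma fit on log2(normalized count + 1) over all 19 mice. By this rule 8.66% of all genes tested changed, against 1 of the 10 members. The log2 fold change was above 0 for 8 of 10 members, with a median of 0.17 beside 0.01 over all genes.

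Nfkbia (ENSMUSG00000021025.8, chromosome 12 of GRCm38, 55489410 to 55492647) had 680.7, 720.1, 734.9, 745.5 and 809.8 normalized counts in the saline-infused IKKβ+/+ mice, and 1021, 1319, 1365, 1490 and 1744 in the Ang II-treated ones. The groups did not overlap, as was the case for 8.42% of all genes in this comparison. The rise was 1.85-fold (log2 fold change 0.89, SE 0.179, adjusted p = 0.0107), and it was higher in 5 of 5 mice than the highest saline value. The log2 fold change was 0.80 or more when any mouse was left out. The average over both genotypes passed for Nfkbia (log2 fold change 0.48, SE 0.131, adjusted p = 0.0272), where 12.7% of all genes changed and no other member did. That average holds the same IKKβ+/+ mice and joins their 0.89 with 0.06 in IKKβ-/- mice, so it is not a second, separate result.

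Nfkbiz moved in the same direction without passing. Its values were 193.7, 226.9, 244.9, 250.1 and 300.5 with saline and 258.3, 313.7, 357.8, 526.4 and 1104 with Ang II in IKKβ+/+ mice. The highest value belonged to 1 mouse (X2350) that stood apart from the rest, and the groups overlapped by 1 mouse on each side. The log2 fold change was 0.87 (SE 0.307, adjusted p = 0.108). It passed in edgeR's quasi-likelihood test (1.07, adjusted p = 0.0581) and in DESeq2 (1.08, adjusted p = 0.0152). Without X2350 it was 0.54 (adjusted p = 0.302), and with the glucocorticoid-induced score described below as a covariate it was -0.08 (adjusted p = 0.995).

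Tnfaip3 had 224.8 to 326.1 normalized counts with saline and 145.1 to 247.4 with Ang II in IKKβ+/+ mice, with overlapping groups (log2 fold change -0.42, 95% confidence interval -0.88 to 0.04, adjusted p = 0.291). Nfkbie and Birc3 had log2 fold changes of 0.17 (-0.54 to 0.88) and 0.05 (-0.24 to 0.34). The subunits Nfkb1 (-0.03, -0.23 to 0.17) and Rela (0.01, -0.23 to 0.25) had the narrowest intervals around 0. Those of Nfkb2 (-0.06 to 0.58), Relb (-0.13 to 0.45) and Rel (-0.18 to 0.66) were wider.

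Other genes moved with Nfkbia in this comparison. Of 12 glucocorticoid-induced genes, 11 were higher and 7 rose, with a median log2 fold change of 1.01. They included the metal-binding protein Mt2 (2.82, SE 0.476, adjusted p = 0.00407), Errfi1 (1.80), a brake on EGF receptor signaling, and the kinase Sgk1 (1.05). The Nfkbia gene is itself known to respond to glucocorticoids. With the mean level of these genes as a covariate the log2 fold change of Nfkbia in IKKβ+/+ mice was 0.68 and did not pass (adjusted p = 0.911). That level lay between -0.93 and -0.07 with saline and between 0.01 and 0.77 with Ang II in these mice. With it 1 of 14845 genes passed in this comparison, against 1286 without it. The fit therefore cannot tell these genes from the treatment. Of 9 leukocyte markers 3 were higher and 0 passed, and with their mean level as a covariate Nfkbia was at 0.91 (adjusted p = 0.0169). Other cell type markers did move: the contractile genes Tagln (0.66) and Cnn1 (0.82) rose, as did the skeletal muscle gene Ckm (2.93), while the endothelial gene Tek (-1.08) and the fibroblast gene Lum (-1.27) fell. In all 6 of 7 smooth muscle markers, 1 of 6 endothelial and 0 of 5 fibroblast markers were higher, and their part in the rise of Nfkbia was not tested.

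**Figure D2:**
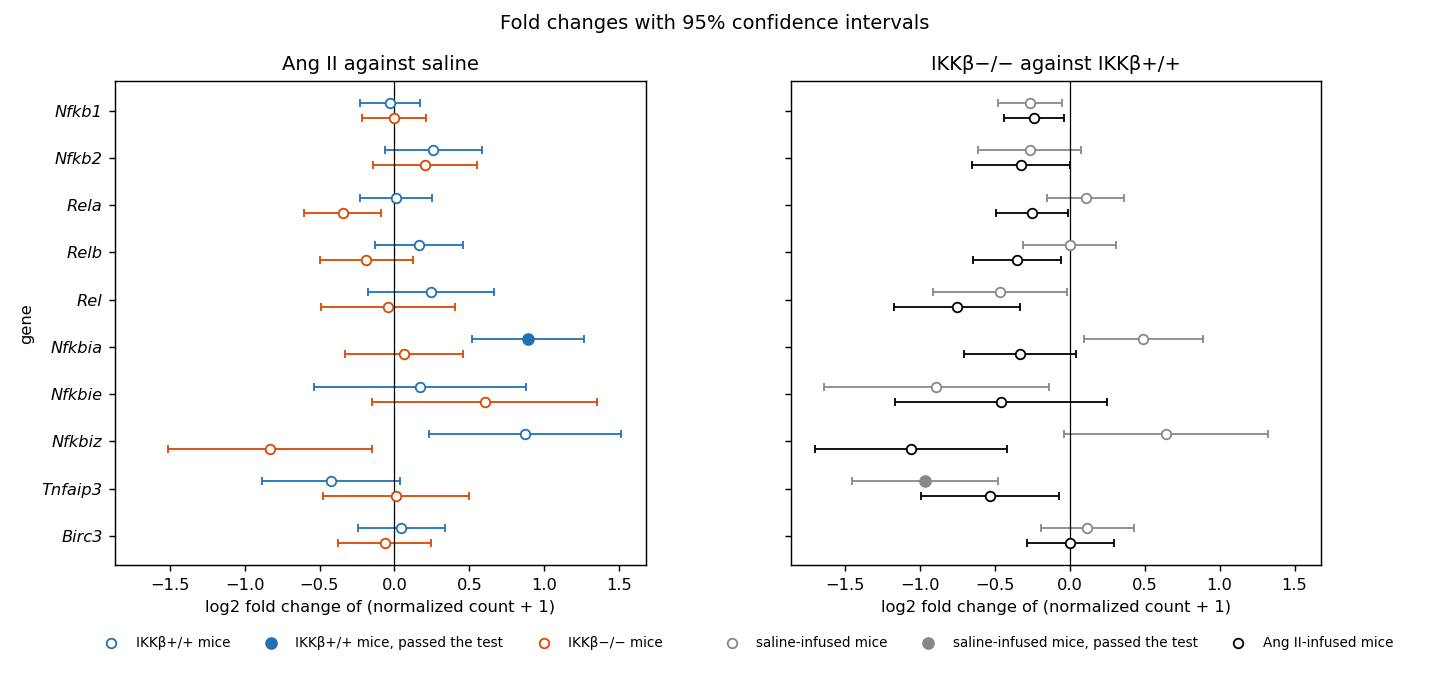
Log2 fold changes of the 10 members (x axis, dots; error bars, 95% confidence intervals) for Ang II against saline in each genotype (left) and for IKKβ-/- against IKKβ+/+ mice with each infusion (right); filled dots passed the test. Nfkbiz lies at 0.87 in IKKβ+/+ and -0.83 in IKKβ-/- mice on the left, and on the right 9 of 10 members lie below 0 with Ang II.

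In IKKβ-/- mice 0 of 10 members changed with Ang II in limma, while 5.29% of all genes did. The unadjusted p was under 0.05 for 2 members, beside 17.8% of all genes. DESeq2 called 1 member and 1164 of 14845 genes in all, and edgeR called 0 members and 722 genes in all. Nfkbia had 822.3, 834.5, 1007 and 1670 normalized counts with saline and 834.2, 1005, 1057, 1113 and 1515 with Ang II. The ranges lay on each other, and the log2 fold change was 0.06 (-0.33 to 0.46). No member had groups that did not overlap, against 5.29% of all genes.

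Nfkbiz had 293.7, 378.8, 410.9 and 438.2 normalized counts in the saline-infused IKKβ-/- mice and 132.4, 152.4, 236, 253.6 and 348.4 in the Ang II-treated ones. All but 1 of the treated mice were under the lowest saline value (log2 fold change -0.83, SE 0.325, adjusted p = 0.188). Rela had 859.4, 1094, 1149 and 1162 with saline and 725.8, 830.3, 844.2, 884.2 and 892.7 with Ang II (-0.35, SE 0.123, adjusted p = 0.14). Rela, which encodes the transactivating subunit of the main canonical dimer, was called by DESeq2 (-0.35, adjusted p = 0.094), and it passed in limma without X2350 (adjusted p = 0.075), an IKKβ+/+ mouse that enters through the shared spread, or the saline-infused mouse X2406 (0.0802). Nfkbiz passed in limma without X2350 (adjusted p = 0.0722) or the Ang II-treated mouse X2380 (0.0902).

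The immediate early genes, which respond within minutes to many stimuli, moved with Nfkbiz and Rela in these mice. Of 14, 10 fell and 0 rose, with a median log2 fold change of -1.77. Of the clock genes 3 rose and 8 fell, and of 5 adipocyte genes tested 4 rose, with a median of 4.04. The summed adipocyte level was 1020 to 4241 in the saline-infused and 2315 to 25080 in the Ang II-treated IKKβ-/- mice. With the immediate early score as a covariate the log2 fold change in IKKβ-/- mice was -0.02 for Nfkbiz (adjusted p = 0.99) and 0.00 for Rela (adjusted p = 0.997). With the adipocyte score it was -0.90 for Nfkbiz (adjusted p = 0.532) and -0.30 for Rela (adjusted p = 0.578). Over all 14845 genes 106 passed with the immediate early score and 11 with the adipocyte score, against 785 without a covariate. The immediate early score lay between 0.41 and 1.56 with saline and between -1.16 and -0.82 with Ang II in these mice. That fit therefore cannot tell the score from the treatment.

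The difference between the Ang II effects of the genotypes was tested as an interaction. No gene of the table passed it in limma (0% of 14845 genes, with 1654 at an unadjusted p under 0.05), and neither did a member. The largest difference among the members was that of Nfkbiz, whose effect was lower by 1.70 on the log2 scale in IKKβ-/- than in IKKβ+/+ mice (SE 0.447, 95% confidence interval -2.64 to -0.77, unadjusted p = 0.00111, adjusted p = 0.242). Nfkbia followed with -0.83 (SE 0.261, unadjusted p = 0.00488, adjusted p = 0.288) and Rela with -0.36 (SE 0.168, unadjusted p = 0.0467, adjusted p = 0.437). DESeq2 on the recovered reads called Nfkbiz (-1.84, adjusted p = 0.0237) and Nfkbia (-0.88, adjusted p = 0.0934), and edgeR called 0 members. Over all 14845 genes DESeq2 called 279 and edgeR 3. The difference for Nfkbiz was -0.77 with the glucocorticoid-induced score and -1.01 with the immediate early score as a covariate. That Nfkbia passed in IKKβ+/+ mice and not in IKKβ-/- mice is therefore not shown in limma to be a difference between them.

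The next question was whether the deletion itself shifted the members without Ang II. One member fell, the A20 gene Tnfaip3, where 5.47% of all genes changed. Tnfaip3 (ENSMUSG00000019850.11, chromosome 10 of GRCm38, 19000910 to 19015657) had 224.8, 237.4, 239.3, 284.6 and 326.1 normalized counts in the saline-infused IKKβ+/+ mice and 97.2, 101.1, 154.4 and 203.6 in the IKKβ-/- mice. The groups did not overlap, and the mean fell from 262.4 to 139.1. The log2 fold change was -0.96 (SE 0.234, adjusted p = 0.0512). It did not pass without X2370 (adjusted p = 0.107), X2373 (0.119) or X2403 (0.145), and its log2 fold change stayed between -1.17 and -0.82 when any mouse was left out. Of the 12 glucocorticoid-induced genes 11 were higher and 2 rose in this comparison, Per1 (1.56) and Klf9 (0.92). Per1 is also among the 14 clock genes, of which 9 rose and 3 fell here. With the score of the 12 glucocorticoid-induced genes as a covariate Tnfaip3 was at -0.60 (adjusted p = 0.211). Over all genes 74 passed with this score, against 812 without it.

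Nfkbia and Tnfaip3 were the 2 members whose saline groups did not overlap between genotypes, against 8.76% of all genes, and they went in opposite directions. Nfkbia was at 1083 ± 399.9 (SD, n = 4) in IKKβ-/- and 738.2 ± 47.0 (SD, n = 5) in IKKβ+/+ mice, a log2 difference of 0.49 that did not pass (SE 0.19, adjusted p = 0.162). Its lowest value in IKKβ-/- mice, 822.3, was close to the highest in IKKβ+/+ mice, 809.8, and 1 mouse (X2403) stood far above the rest at 1670. Without X2403 the log2 difference was 0.26 (adjusted p = 0.457). Nfkbiz was also higher in IKKβ-/- mice with saline (0.64, SE 0.325, adjusted p = 0.287). DESeq2 called Nfkbia in this comparison (0.55, adjusted p = 0.0814).

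Nfkbie had 63.4, 64.6, 66.7, 69.2 and 87.4 normalized counts in the saline-infused IKKβ+/+ mice and 10.8, 47.2, 50.6 and 71.4 in the IKKβ-/- mice. The lowest value came from X2406, the library with the fewest reads, and rested on 6 reads. The log2 fold change of Nfkbie was -0.89 (SE 0.359, adjusted p = 0.182), and without X2406 it was -0.33 (adjusted p = 0.544). The subunits Rel (-0.47, SE 0.214), Nfkb1 (-0.27, SE 0.102) and Nfkb2 (-0.27, SE 0.165) were lower without passing, and Relb (0.00) and Rela (0.11) lay near 0.

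With Ang II, 9 of 10 members were lower in IKKβ-/- than in IKKβ+/+ mice and 0 passed the test in limma, where 0.128% of all genes did. DESeq2 called 2 members and 521 of 14845 genes in all, and edgeR called 0 members and 16 genes in all. The unadjusted p was under 0.05 for 7 of the 10 members, beside 14.3% of all genes, and the median log2 fold change was -0.34 beside -0.01 over all genes. All 5 subunits had an unadjusted p under 0.05, with log2 fold changes from -0.75 (Rel) to -0.24 (Nfkb1). The members share these 10 mice, so that their directions are not independent of each other.

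Rel had 109.9, 130.5, 179.6, 195.8 and 197.1 normalized counts in the Ang II-treated IKKβ+/+ mice and 74.9, 86.5, 98.0, 98.3 and 114.4 in the IKKβ-/- mice. The groups overlapped by 1 mouse, and no member had groups apart in this comparison, against 1.54% of all genes. The log2 fold change of Rel was -0.75 (SE 0.202, adjusted p = 0.162), and that of Nfkbiz -1.06 (SE 0.307, adjusted p = 0.177). DESeq2 called both (adjusted p = 0.0242 for Rel and 0.0249 for Nfkbiz), and limma called both without the IKKβ+/+ mouse X2356 (0.074 and 0.082) and Nfkbiz without X2380 (0.0806).

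Averaged over saline and Ang II, 2 members were lower in IKKβ-/- mice, Tnfaip3 and Rel, where 7.24% of all genes changed. Rel (ENSMUSG00000020275.9, chromosome 11 of GRCm38, 23736847 to 23770970), the c-Rel subunit that is best known from lymphoid and myeloid cells, had 134.2 ± 15.0 (SD, n = 5) and 162.6 ± 39.9 (SD, n = 5) normalized counts in the saline-infused and the Ang II-treated IKKβ+/+ mice. In the IKKβ-/- mice it had 100.2 ± 32.5 (SD, n = 4) and 94.4 ± 14.8 (SD, n = 5). Between the genotypes Rel fell by 34.5% (log2 fold change -0.61, SE 0.147, adjusted p = 0.0353). Tnfaip3 fell by 40.5% (-0.75, SE 0.161, adjusted p = 0.0251). Nfkb1 was lower by 16.1% (-0.25, SE 0.0697, adjusted p = 0.0557), and it was not counted because its fold change was under 1.2. Nfkb2 (-0.30, adjusted p = 0.137) and Nfkbie (-0.67, adjusted p = 0.124) were lower without passing, and Birc3 (0.06) and Nfkbia (0.08) lay near 0.

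Leukocyte markers moved with the genotype as well. All 9 were lower in IKKβ-/- mice over both treatments and 5 fell, with a median log2 fold change of -0.65, among them the phagocyte gene Cd68 (-0.85, SE 0.177, adjusted p = 0.0224), the pan-leukocyte gene Ptprc (-0.71) and Laptm5 (-0.69). Their summed level was 5558 to 7669 in saline-infused and 4747 to 6582 in Ang II-treated IKKβ+/+ mice, and 2804 to 4377 and 2867 to 8119 in the matching IKKβ-/- mice. None of the 9 markers was at 0 in a whole group. With their mean level as a covariate the log2 fold change of Rel over both treatments was -0.61 (adjusted p = 0.176), and that of Tnfaip3 with saline was -1.21 (adjusted p = 0.113). Over both treatments Tnfaip3 still passed with this covariate. Over all genes 741 passed with it over both treatments, against 1075 without it. With saline 293 passed, against 812. The endothelial markers were lower as well (6 of 6, 0 past the threshold, median -0.40).

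The clock genes also differed between the genotypes. Of 14, 9 were higher and 3 lower past the threshold in saline-infused IKKβ-/- mice, and 8 and 3 over both treatments. With a clock score as a covariate the log2 fold change over both treatments was -0.65 for Rel (adjusted p = 0.506) and -0.68 for Tnfaip3 (adjusted p = 0.506). Without it the values were -0.61 and -0.75. Over all 14845 genes 5 passed with this score, against 1075 without it. The score differed between the genotypes, and the fit cannot tell it from them. The time of day of collection was not given in the sources used here.

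**Figure D3:**
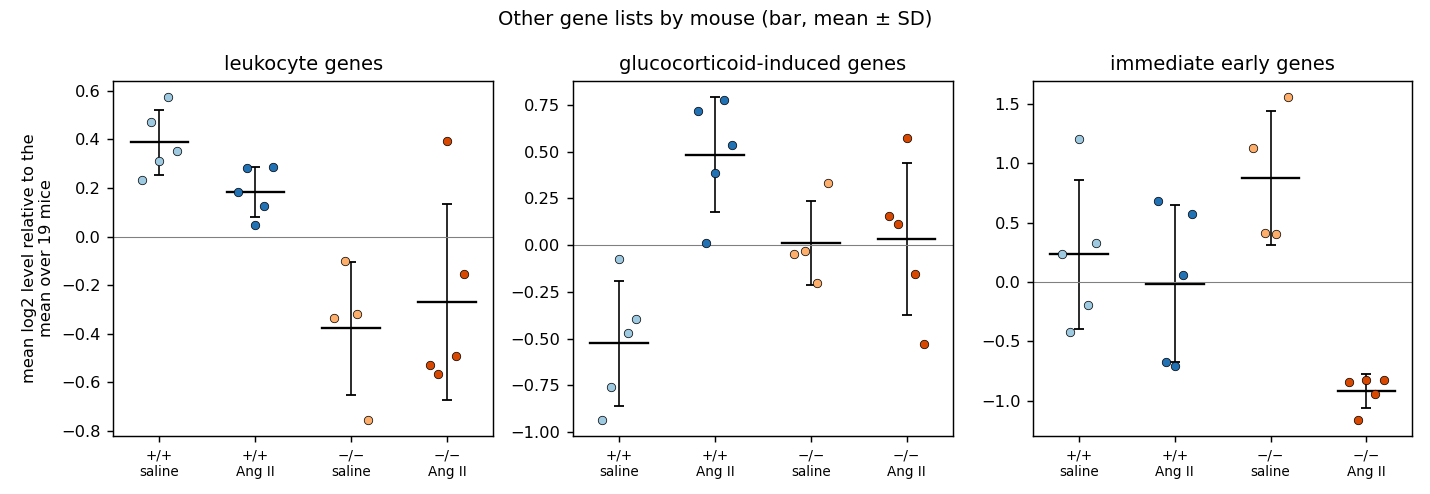
Mean log2 level of the leukocyte, glucocorticoid-induced and immediate early genes in each mouse relative to the mean over 19 mice (y axis), by IKKβ genotype and infusion (x axis); bars are means and error bars SD. The glucocorticoid-induced genes lie between -0.93 and -0.07 in saline-infused and between 0.01 and 0.77 in Ang II-treated IKKβ+/+ mice, and the leukocyte genes lie above 0 in all IKKβ+/+ mice.

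The other genes of the pathway gave the setting of the members. Among 11 genes of the IKK complex and its kinases, Ikbkb alone fell over both treatments and 0 rose (median -0.03). Of 16 receptors and adaptors 4 fell in IKKβ-/- mice, namely the TNF receptor Tnfrsf1b (-0.65, adjusted p = 0.028), the interleukin-1 receptor Il1r1 (-0.46), the pattern receptor Tlr2 (-0.50) and the kinase Ripk1 (-0.29). Of 10 genes tested of the non-canonical arm 1 fell, Traf3 (-0.50, SE 0.099, adjusted p = 0.0173), an adaptor that keeps this arm in check. Of 17 further IκB proteins and inhibitors tested 0 passed over both treatments, with a median of -0.11.

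The inflammatory targets of NF-κB did not move as a block with Ang II. In IKKβ+/+ mice 3 of 24 tested rose, Ptgs2 (2.17), Lcn2 (2.15) and Mmp3 (0.91), and Irf1 fell (-1.05), and the median of the list was 0.06. In IKKβ-/- mice Lcn2 (4.44) and Mmp3 (1.47) rose and Ier3 fell (-1.71), with a median of -0.04. The mean of Lcn2 was 9.06 normalized counts with saline and 46.0 with Ang II in IKKβ+/+ mice. In IKKβ-/- mice it was 1.93 and 54.2, so that the larger fold change came with a lower saline value and few reads. With saline Lcn2 was lower in IKKβ-/- mice (-2.16, SE 0.552, adjusted p = 0.0563). Over both treatments 4 of 24 were higher in IKKβ-/- than in IKKβ+/+ mice, the others were lower and 0 passed, with a median of -0.30. Zc3h12a, which encodes the RNase Regnase-1 that degrades inflammatory transcripts, fell with Ang II in IKKβ-/- mice (-0.90, SE 0.248, adjusted p = 0.0561).

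Within groups the members did not vary as a single unit. Pearson's r and Spearman's rho were computed for the 45 pairs over the 19 mice after the mean of each group was removed, with a two-sided permutation test within groups (100000 resamples). Of the 45 pairs 30 had an r above 0, with a median of 0.09. The unadjusted p was under 0.05 for 3 pairs, and none passed after adjustment over the 45 pairs.

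The 3 pairs with the smallest p are given as a description, since none of them passed. Nfkb1 and Rel had an r of 0.60 and a rho of 0.61 (permutation p = 0.0142 and 0.0168, adjusted p = 0.295 and 0.68), and an r of 0.50 without the 2 mice farthest from the median of Nfkb1. Nfkb2 and Relb, the pair of the non-canonical arm, had an r of 0.57 and a rho of 0.55 (permutation p = 0.0194 and 0.032, adjusted p = 0.295 and 0.68), and 0.45 without 2 mice. Rela and Nfkbiz had an r of 0.63 and a rho of 0.44 (permutation p = 0.0197 and 0.0726, adjusted p = 0.295 and 0.68), and 0.36 without 2 mice. The lowest r was -0.56 between Rel and Nfkbia (rho -0.41, permutation p = 0.0585 and 0.151, adjusted p = 0.49 and 0.68), and -0.51 without 2 mice. Batches could not be separated within these groups.

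**Figure D4:**
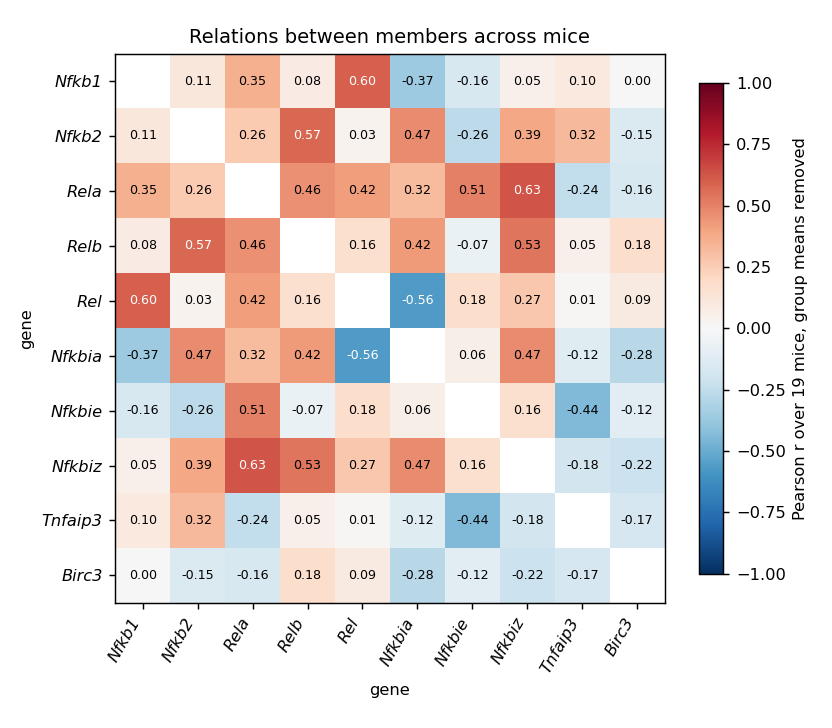
Pearson's r between the log2 levels of each pair of members over 19 mice after group means were removed (color scale from -1 to 1; both axes list the 10 members). The highest values are 0.63 for Rela with Nfkbiz and 0.60 for Nfkb1 with Rel, and the lowest is -0.56 for Rel with Nfkbia.

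The mean levels of 3 gene lists were related to the members in the same way (30 relations). None of the relations with the leukocyte score passed. Its r was -0.005 with Rel (rho = 0.07, permutation p = 0.985 and 0.786) and -0.22 with Tnfaip3 (rho = -0.11, permutation p = 0.471 and 0.718). The largest was 0.60 with Birc3 (rho = 0.41, permutation p = 0.068 and 0.144, adjusted p = 0.247 and 0.446). The immediate early score rose with Nfkb1 (r = 0.75, rho = 0.67, permutation p = 0.00229 and 0.00634, adjusted p = 0.0687 and 0.0904) and with Rel (r = 0.71, rho = 0.78, permutation p = 0.0047 and 0.00189, adjusted p = 0.0705 and 0.0567). Without the 2 mice farthest from the median score the r was 0.63 and 0.71. The glucocorticoid-induced score fell with Tnfaip3 (r = -0.61, rho = -0.61, permutation p = 0.00945 and 0.0107, adjusted p = 0.0945 and 0.0904), with an r of -0.53 without 2 mice. Nfkbiz had an r of 0.57 with that score (permutation p = 0.0213, adjusted p = 0.15), which was 0.39 without 2 mice, and its rho was 0.61 (permutation p = 0.0131, adjusted p = 0.0904). Rela had an r of 0.58 with the immediate early score (permutation p = 0.0277, adjusted p = 0.15), which was 0.47 without 2 mice, and a rho of 0.60 (permutation p = 0.0151, adjusted p = 0.0904).

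Among 11411 other genes with a mean of at least 50 normalized counts, those most like each member within groups were listed by Pearson's r over the 19 mice, as a description. Rela was most like the chaperone genes Hspa1b (0.94), Hspa1a (0.93) and Bag3 (0.93). Hspa1a and Hspa1b are near-identical copies, and the reads of the pair cannot be fully told apart. Nfkbiz was most like Clcf1 (0.92), a cytokine of the interleukin-6 family, Sbno2 (0.91) and Jmjd6 (0.88). Nfkb1 was most like Ap1g1 (0.92), Usp9x (0.90) and Lats1 (0.88), and Birc3 most like Tiparp (0.89), Ddx58 (0.85) and Clec4a3 (0.83).

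For Nfkbia the closest genes were Hgh1 (0.88), Uckl1 (0.86) and 4933434E20Rik (0.85), and for Nfkbie they were Chad (0.87), Stxbp2 (0.83) and Inpp4b (0.83). Nfkb2 was most like Eif3a (0.84), Inhba (0.79) and Ctbp2 (0.77), and Relb was close to Phax (0.78) and Pop4 (0.77). Rel was most like Kctd11 (0.82), Sde2 (0.80) and Papolg (0.79), and Tnfaip3 most like Zfp280d (0.79), Ccdc14 (0.78) and Taf7 (0.78). The values compared come from the same libraries and share their depth.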

How the data were processed

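RNA of the SRA of 19 mice was read from a single table of 20408 genes. The authors prepared poly(A) libraries, trimmed single reads with Trimmomatic 0.35, used STAR 2.7.1a with GRCm38 and Gencode genes for alignment and read counts, and normalized by DESeq2 1.30.1. The deposited values are a signal, the reads of a mouse divided by its size factor. All (100%) were whole multiples of 1 read within 0.1 read, so reads were recovered for count tests. Mice of a group differed by more than counting noise.

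The filter kept the 14845 genes that reached 10 normalized counts in 4 or more mice. log2(value + 1) was compared with limma 3.58.1 in R 4.3.3, in 1 fit with a mean per group, two-sided, with Benjamini-Hochberg adjustment over all genes tested. The pseudocount understates changes of low genes such as Nfkbie. For a list score, each gene's log2 value was centred on its mean in the 19 mice and the list was averaged. The clock score is the mean of 9 genes of the Per and Nr1d1 phase minus that of Arntl, Npas2, Clock and Nfil3. The depth of 11382573 to 19906694 reads limits the precision of genes with few reads. Gene positions were taken from the table and were the same in Gencode M21 for 10 of 10 members. Exon lengths came from M21 and promoters from RefSeq (GRCm38.p6).

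Named were the members, Ikbkb, genes of the lists past the threshold (at most 5 per list and comparison), abundant cell type markers and the 3 genes most like each member, 1 of which is not reported here. Members and lists were chosen with earlier results of these data known. The alternatives included edgeR 4.0.16, DESeq2 1.42.0, other filters, thresholds and covariates, and each mouse left out; the clock and immediate early scores as covariates were chosen after seeing the data. All 3 tools were run on simulated counts with known changes.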

Additional observations from a re-analysis of the deposited data

Results flagged for a closer look

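Of 40 sets of values (10 members in 4 groups), 1 held a mouse apart from its group, and chance gives about 1 in 20. Nfkbie in the saline-infused IKKβ+/+ mouse X2376 had 87.4 normalized counts, above 69.2 in the next mouse.

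The effect of Ang II differed between the genotypes at an unadjusted p under 0.05 for 3 members, beside 11.1% of all genes. None of these members passed after adjustment over all genes in limma. The difference, IKKβ-/- minus IKKβ+/+, was -1.70 for Nfkbiz, -0.83 for Nfkbia and -0.36 for Rela on the log2 scale. For Nfkbiz, every Ang II-treated IKKβ+/+ mouse was above the mean of its saline group and every Ang II-treated IKKβ-/- mouse below the mean of its own.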

How the results depend on the processing

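No called member changed direction. Uncalled members did under some alternatives. In IKKβ+/+ mice with the glucocorticoid-induced score Nfkbiz was at -0.08, Tnfaip3 at 0.26, Rel at -0.07, Relb at -0.03 and Nfkbie at -0.16, and the difference of the effects was -0.24 for Tnfaip3. With the immediate early score the difference was 0.36 for Rel. The difference for Nfkbie was -0.04 with array weights and -0.13 without X2406. In IKKβ+/+ mice the count of members changed by Ang II (1) was 2 with at least 50 normalized counts, with array weights, in edgeR, in DESeq2 and with the immediate early score as a covariate, 0 with the glucocorticoid-induced score, and 1 to 2 with a mouse left out (2 without X2352, X2356, X2380 or X2386). In IKKβ-/- mice the count (0) was 2 with array weights, 1 in DESeq2 and 0 to 2 with a mouse left out (2 without X2350, 1 without X2380 or X2406). For the difference of the effects (0) it was 1 with array weights and 2 in DESeq2. Between genotypes with saline the count (1) was 2 with only the compared groups, with array weights and in DESeq2, 0 at an adjusted p under 0.05 and with the leukocyte, glucocorticoid-induced or clock score, 3 with the immediate early score, and 0 to 3 with a mouse left out (0 without X2370, X2373 or X2403, 3 without X2409). With Ang II (0) it was 2 in DESeq2 and 0 to 2 with a mouse left out (2 without X2356, 1 without X2380). The averaged Ang II count (1) was 0 at a fold change above 1.5 and with the adipocyte, glucocorticoid-induced or clock score. Nfkbia itself lost its call there in 5 of 15 alternatives, and in 1 of them Rel was called instead, which left the count the same. The averaged genotype count (2) was 0 with the clock score and 2 to 4 with a mouse left out (4 without X2409). The causes were not tested. A covariate that differs between the groups also takes up part of the group difference, and no batch was given. No paired analysis was possible because the groups share no replicate numbers. Nfkbie, with as few as 6 reads, is the member that depth limits most.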
